A study of Mus musculus with 20 samples.

Results

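The membrane transporters that carry drugs, bile pigments and conjugates into and out of hepatocytes were followed in mouse liver during cysteine withdrawal. The set was chosen by gene symbol: 9 of the 46078 genes of the count table, of which 5 are efflux transporters of the ABC family (*Abcc1*, *Abcc2*, *Abcc3*, *Abcc4* and *Abcg2*) and 4 are uptake carriers of the OATP family (*Slco1a1*, *Slco1a4*, *Slco1b2* and *Slco2b1*). All 9 had enough counts to be tested, as did 14759 genes in all. mRNA was sequenced from the livers of 20 male mice at least 9 weeks old on a mixed 129 and C57BL/6 background. Mice lacking *Cse* (also named *Cth*, the enzyme that makes cysteine from cystathionine) were compared with *Cse*+/- mice. GEO's labels call the latter wild type and the study's list of mice calls them heterozygous. The *Cse*+/- mice formed a control diet group of 2, a no-Cys diet group of 4 and a no-Trp diet group of 3. Among the *Cse*-/- mice, 4 received the no-Cys diet, 3 received the no-Trp diet and 4 received the no-Trp diet supplemented with BSO. Every mouse had been calorie restricted for 3 days on the control diet, a defined amino acid diet, and stayed restricted after the shift, 2 days before the liver was taken. No-Cys and no-Trp diets lack cysteine or tryptophan. BSO (L-buthionine sulfoximine) blocks γ-glutamylcysteine synthase and so the making of glutathione (GSH). Livers of *Cse*-/- mice fed the control diet were not analysed here.

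Hepatocytes take up bile salts, hormones and drugs from the blood mainly through OATP carriers on the sinusoidal membrane. Inside the cell many of these molecules are joined to glucuronate, sulfate or GSH. ABC pumps then use ATP to send the conjugates out, either across the canalicular membrane into bile (MRP2, encoded by *Abcc2*, and BCRP, encoded by *Abcg2*) or back across the sinusoidal membrane into blood (MRP3, encoded by *Abcc3*, and MRP4, encoded by *Abcc4*). MRP1, encoded by *Abcc1*, pumps GSH conjugates in many tissues and is scarce in hepatocytes. NRF2, the transcription factor of the oxidative stress response, is known to act on several of the ABC genes through the antioxidant response element (ARE).

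The genes lie on 6 chromosomes of GRCm38. *Abcc1* (ENSMUSG00000023088) is at chr16:14361558-14475737, *Abcc2* (ENSMUSG00000025194) at chr19:43782192-43840740 and *Abcg2* (ENSMUSG00000029802) at chr6:58584523-58695676, all on the plus strand. *Abcc3* (ENSMUSG00000020865) is at chr11:94343295-94392997 and *Abcc4* (ENSMUSG00000032849) at chr14:118482692-118706219, both on the minus strand. The 3 genes of the Slco1 family are neighbours within 317 kb of chromosome 6. *Slco1b2* (ENSMUSG00000030236) is at chr6:141629518-141686646 on the plus strand, *Slco1a4* (ENSMUSG00000030237) at chr6:141805440-141856199 and *Slco1a1* (ENSMUSG00000041698) at chr6:141907282-141946962, both on the minus strand. *Slco2b1* (ENSMUSG00000030737) is at chr7:99657804-99711340 on the minus strand. Stretches of 61 bases that another gene also contains made up 1.35% of the transcript sequence of *Slco1a1* and 1.25% of that of *Slco1a4*, shared mostly with each other or with *Slco1a5*. The share is 5.33% in *Slco2b1*, whose exons overlap those of the antisense gene *Gm15635*, and at most 0.348% in the other members. No source used here says whether reads were counted by strand, so reads of *Slco2b1* and its antisense partner may not be told apart.

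RefSeq promoter windows (GRCm38.p6, from 250 bases before to 50 after a transcript start) were found for 7 of the 9 genes, in 12 entries; *Abcc1* and *Abcc3* have none. The windows were searched on both strands for the ARE core TGACNNNGC, which 12.4% of 32817 windows hold. It occurs in 3 of the 12 entries, both of *Abcc4* and the one of *Abcc2*, and in no window of *Abcg2* or the 4 Slco genes. These 3 windows and that of *Slco1a1*, the uptake gene that fell, are shown in the direction of transcription with the ARE core in capitals.
Abcc4, chr14:118706170-118706469, minus strand: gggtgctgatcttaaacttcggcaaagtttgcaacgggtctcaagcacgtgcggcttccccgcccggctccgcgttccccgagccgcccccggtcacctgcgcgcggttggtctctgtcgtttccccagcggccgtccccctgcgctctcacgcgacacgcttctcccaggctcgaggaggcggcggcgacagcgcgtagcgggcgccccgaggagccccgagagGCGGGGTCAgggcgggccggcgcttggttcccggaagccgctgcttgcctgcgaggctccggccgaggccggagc
Abcc4, chr14:118676882-118677181, minus strand: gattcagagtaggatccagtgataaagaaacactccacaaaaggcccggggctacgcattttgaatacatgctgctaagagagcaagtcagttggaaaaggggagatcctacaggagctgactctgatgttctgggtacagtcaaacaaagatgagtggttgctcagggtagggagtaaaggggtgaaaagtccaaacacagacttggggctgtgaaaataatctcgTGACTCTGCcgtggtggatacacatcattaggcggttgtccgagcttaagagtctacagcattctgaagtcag
Abcc2, chr19:43782058-43782357, plus strand: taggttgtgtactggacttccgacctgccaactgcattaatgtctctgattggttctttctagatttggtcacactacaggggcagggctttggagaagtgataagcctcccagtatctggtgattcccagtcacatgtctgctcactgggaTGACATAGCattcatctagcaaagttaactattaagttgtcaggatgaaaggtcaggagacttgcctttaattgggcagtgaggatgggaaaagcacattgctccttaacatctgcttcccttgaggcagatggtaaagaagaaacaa
Slco1a1, chr6:141946913-141947212, minus strand: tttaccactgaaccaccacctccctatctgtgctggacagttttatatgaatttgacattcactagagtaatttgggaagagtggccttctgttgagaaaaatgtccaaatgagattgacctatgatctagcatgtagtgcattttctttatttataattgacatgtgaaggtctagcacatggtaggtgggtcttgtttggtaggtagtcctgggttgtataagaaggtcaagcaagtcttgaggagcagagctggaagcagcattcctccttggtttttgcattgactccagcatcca
Counting from 0 at the transcript start, the match begins at position −25 in the first *Abcc4* window, where it reads on the opposite strand, at −23 in the second and at −98 in *Abcc2*. The 5-letter xenobiotic response core GCGTG, held by 32.4% of all windows, occurs in the first *Abcc4* window and in 1 of the 3 of *Abcg2*. The HNF1 core GTTAAT, held by 7.10%, occurs in that of *Slco1b2* alone. The matches describe letters in these windows and no binding was measured.

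The libraries held 11785740 to 57986121 counts on genes, with a median of 15252745. *Cth* was at 88.4 to 332 counts scaled to library size (CPM) in *Cse*+/- livers and at 6.37 to 14.4 CPM in *Cse*-/- livers. Hepatocyte markers (6 of 6 detected) summed to 40150 CPM or more in every liver. Kidney transcripts stood out in 2 livers, with a summed level of 20.96 CPM in control mouse av22 and 6.05 CPM in *Cse*-/- no-Trp mouse av15, against at most 0.901 CPM elsewhere. Mouse av08 stood apart within the *Cse*-/- no-Cys group, where its counts differed from the other 3 livers by a chi-square of 43.3 to 48.9 per gene, against 9.60 to 16.3 among those 3. Mouse av01 did so within the *Cse*+/- no-Cys group, at 26.9 to 49.8, against 15.1 to 23.6 among the other 3. Values of this size occurred elsewhere too, with 31.9 to 64.2 between *Cse*-/- no-Trp livers. Livers are named by the mouse numbers of the count table.

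Among the transporters, levels per kilobase of exon over the 20 livers differed widely. Uptake carrier *Slco1b2* led with 238 CPM per kb, followed by *Abcc2* with 86.5, *Abcc3* with 69.6 and *Slco1a1* with 53.1 CPM per kb. *Slco2b1* was at 20.7, *Slco1a4* at 12.1 and *Abcg2* at 9.54 CPM per kb. *Abcc4* (1.04 CPM per kb) and *Abcc1* (0.117 CPM per kb) were scarce, with 15 to 548 and 14 to 100 counts per library. Across the 6 groups the highest group mean exceeded the lowest 7.52-fold for *Abcc4*, 3.29-fold for *Slco1a1* and 2.65-fold for *Abcc3*. It did so 1.60-fold for *Abcc2* and for *Slco1a4*, and 1.28 to 1.32-fold for the other 4 genes. Variation between the groups was thus concentrated in 3 of the 9 genes.

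*Abcc3* pumps glucuronides such as bilirubin glucuronide into blood. In *Cse*-/- livers on the no-Cys diet it was at 653, 579, 599 and 574 CPM. The *Cse*+/- livers on that diet had 175, 237, 258 and 237 CPM, all below the lowest *Cse*-/- value. With BSO on the no-Trp diet, *Cse*-/- livers held 653, 422, 592 and 547 CPM, and without BSO 319, 405 and 326 CPM. The *Cse*+/- livers on the no-Trp diet (253, 299 and 257 CPM) and the control diet (266 and 283 CPM) were lower again. In the order of group means, *Cse*-/- no-Cys (601 ± 36.3 CPM, SD, n = 4) and *Cse*-/- no-Trp with BSO (554 ± 97.6, n = 4) overlapped. Both stood clear of *Cse*-/- no-Trp (349.8 ± 47.5, n = 3), which stood clear of the control group (274 ± 12.3, n = 2), while the 3 *Cse*+/- groups overlapped with their neighbours.

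*Abcc4* exports bile salts, cyclic nucleotides and sulfated steroids across the sinusoidal membrane. It was at 13.9, 14.4, 21.5 and 14.02 CPM in *Cse*-/- livers on the no-Cys diet, against 2.16, 2.05, 3.03 and 2.26 CPM in *Cse*+/- livers on the same diet. The BSO group had 9.56, 4.56, 9.83 and 9.51 CPM, and *Cse*-/- livers on the no-Trp diet alone 3.45, 4.99 and 4.89 CPM. The *Cse*+/- livers had 1.07, 2.27 and 3.04 CPM on the no-Trp diet and 3.03 and 2.72 CPM on the control diet. Every *Cse*-/- liver exceeded every *Cse*+/- liver. The *Cse*-/- no-Cys group (mean 16.0 ± 3.72 CPM) did not overlap with any other group.

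**Figure D1:**
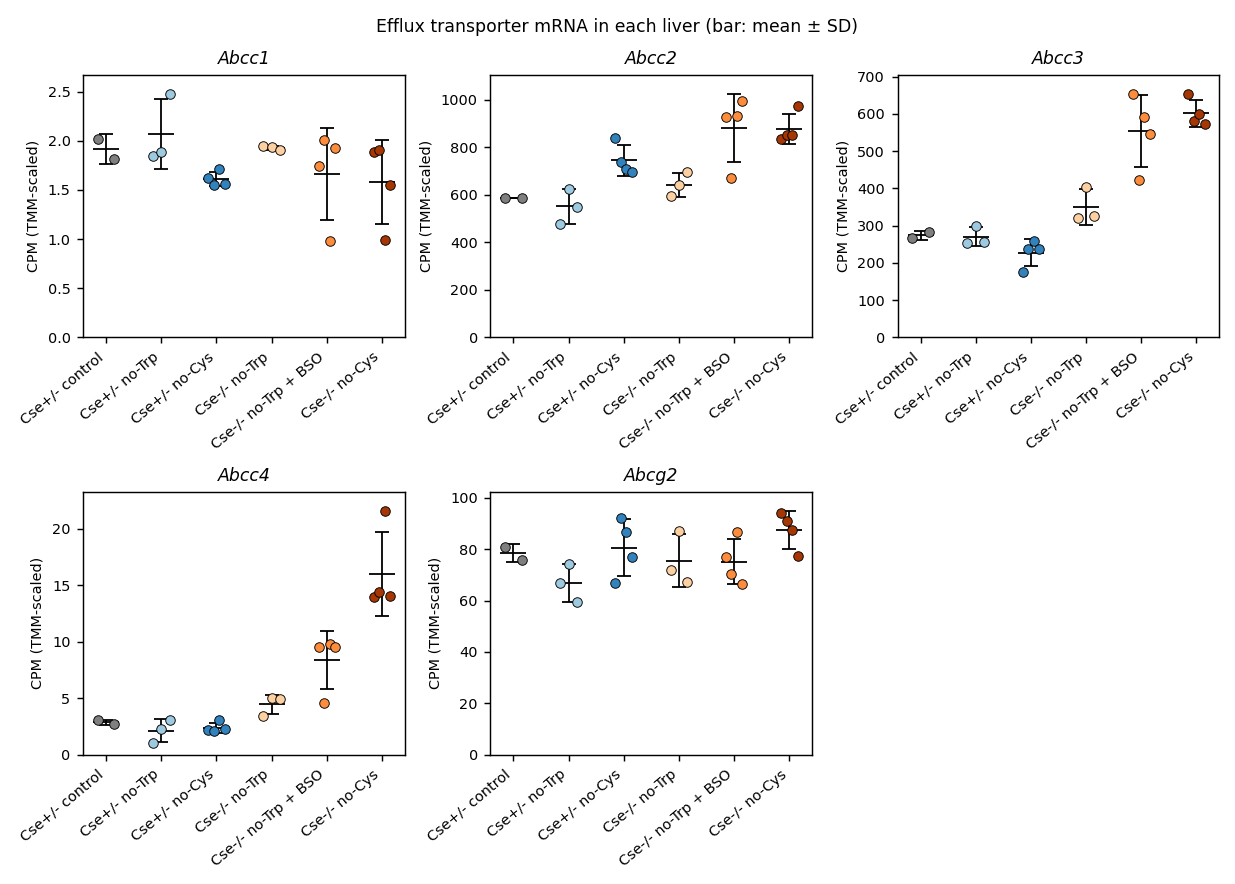
Level of each of the 5 efflux transporters in CPM (y axes from 0) in each liver (points) by group (x axis), with the group mean and SD as bars. *Abcc3* and *Abcc4* are highest in *Cse*-/- livers on the no-Cys diet (601 and 16.0 CPM), while *Abcg2* lies between 59.6 and 94.0 CPM in all 20 livers.

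*Slco1a1*, an uptake carrier for steroid sulfates and other organic anions that is more abundant in male than in female mouse liver, went the other way. The *Cse*-/- livers on the no-Cys diet had 150.3, 158, 150.2 and 50.3 CPM. The *Cse*+/- livers on the no-Cys diet had 229.5, 566, 445 and 434 CPM, all higher. The BSO group had 150.2, 196, 193 and 175 CPM and the *Cse*-/- no-Trp group 332, 169 and 299 CPM. All 9 *Cse*+/- livers were above every liver of the *Cse*-/- no-Cys and BSO groups, with 414, 313 and 369.7 CPM on the no-Trp diet and 468 and 339.96 CPM on the control diet. Neighbouring groups in the order of means, from 419 ± 140 CPM in *Cse*+/- no-Cys to 127 ± 51.3 CPM in *Cse*-/- no-Cys, overlapped throughout.

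*Abcc2*, the canalicular pump of bilirubin glucuronide and GSH conjugates, was at 836, 850, 850 and 971 CPM in *Cse*-/- livers on the no-Cys diet and at 928, 669, 930 and 992 CPM with BSO. It was at 593, 640 and 693 CPM in *Cse*-/- livers on the no-Trp diet. The *Cse*+/- livers had 837, 737, 707 and 696 CPM on the no-Cys diet, 479, 623 and 550 CPM on the no-Trp diet, and 586 CPM in both livers on the control diet. The no-Cys groups of both genotypes thus overlapped for *Abcc2*, unlike for *Abcc3* and *Abcc4*. *Slco1b2*, a carrier for bilirubin and many drugs, ranged from 920.2 to 1571 CPM over all livers. *Slco2b1*, a carrier for steroid sulfates, ranged from 86.3 to 178 CPM, and *Slco1a4*, a carrier for bile salts and digoxin, from 36.6 to 156 CPM. *Abcc1* ranged from 0.983 to 2.48 CPM and *Abcg2* from 59.6 to 94.0 CPM.

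**Figure D2:**
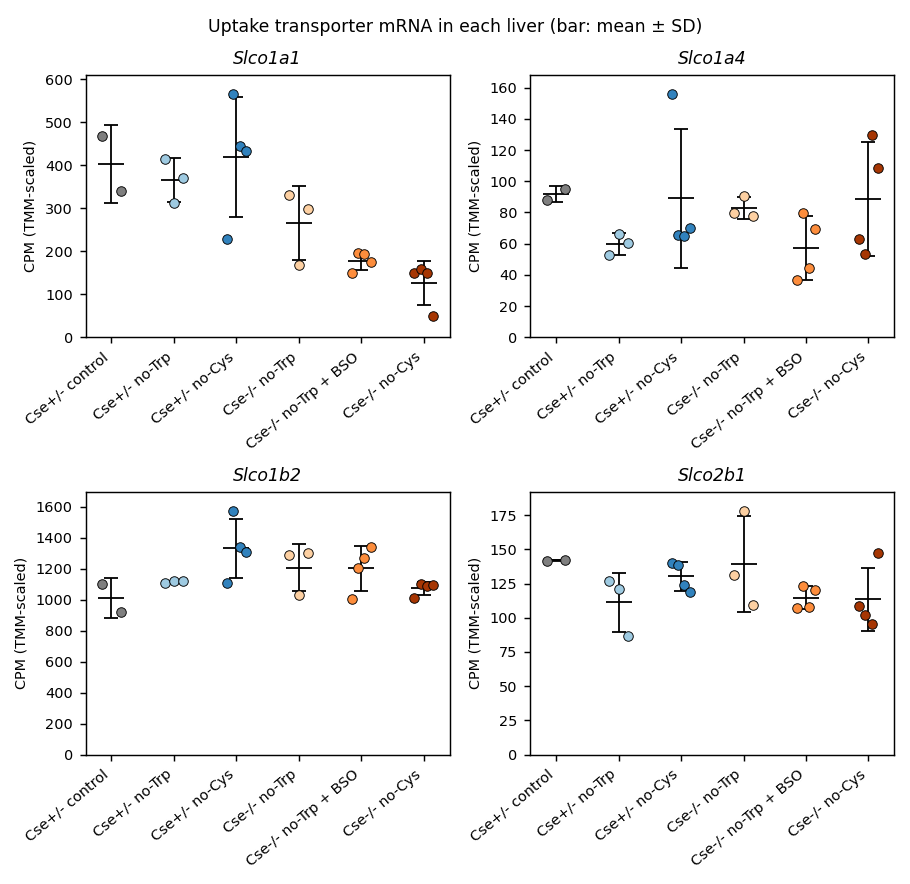
Level of each of the 4 uptake carriers in CPM (y axes from 0) in each liver (points) by group (x axis), with the group mean and SD as bars. *Slco1a1* falls from a mean of 419 CPM in *Cse*+/- to 127 CPM in *Cse*-/- livers on the no-Cys diet, while the groups of *Slco2b1* and *Slco1a4* overlap on that diet.

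The first question was what the absence of CSE changes when cysteine is also absent from the diet. In *Cse*-/- against *Cse*+/- livers on the no-Cys diet, *Abcc3* rose 2.65-fold (log2 fold change 1.41, SE 0.133, edgeR adjusted p = 8.70e-07) and *Abcc4* 6.71-fold (2.75, SE 0.273, edgeR adjusted p = 1.78e-06). *Slco1a1* fell to 0.304 of its *Cse*+/- level (log2 fold change −1.72, SE 0.299, edgeR adjusted p = 0.000447). The model called 3 of the 9 members, where it called 23.8% of all genes tested. Without mouse av08 the log2 fold changes were 1.43, 2.80 and −1.45, and all 3 were called. Among the efflux genes 2 of 5 rose (11.6% of all genes did) and none fell, and among the uptake genes 1 of 4 fell (12.2% of all genes did) and none rose. Group ranges did not overlap for 2 of 5 efflux genes, both higher (12.0% of all genes), and for 2 of 4 uptake genes, both lower (11.2% of all genes). The second of these was *Slco1b2*, at 1012 to 1101 CPM in *Cse*-/- against 1109 to 1571 CPM in *Cse*+/- livers (log2 fold change −0.31, SE 0.113, edgeR adjusted p = 0.0509). It passed the threshold without mouse av01 (−0.39, edgeR adjusted p = 0.0184) and with DESeq2 (−0.31, adjusted p = 0.0314), upper-quartile factors (edgeR adjusted p = 0.0439) or a minimum mean CPM of 1 (edgeR adjusted p = 0.0448). Over all alternatives its adjusted p ranged from 0.0184 to 0.188. *Abcc2* (0.24, 95% interval 0.00 to 0.48), *Abcg2* (0.12, −0.12 to 0.35) and *Abcc1* (−0.03, −0.52 to 0.47) did not pass the test, nor did *Slco2b1* (−0.20, −0.51 to 0.11) and *Slco1a4* (−0.01, −0.63 to 0.61). The median log2 fold change was 0.24 over the efflux genes and −0.26 over the uptake genes, against −0.0093 over all genes.

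In bulk tissue, fewer cells of a type and less RNA per cell cannot be told apart. On the no-Cys diet the 6 hepatocyte markers summed to 40150 to 66793 CPM in *Cse*-/- and 84433 to 108601 CPM in *Cse*+/- livers, and 4 of the 6, *Alb* among them (log2 fold change −1.26, SE 0.172, edgeR adjusted p = 4.79e-05), fell while *Cps1* rose. The 6 cholangiocyte markers, all detected, summed to 16.4 to 28.8 CPM against 46.1 to 57.9 CPM, with *Spp1* and *Sox9* lower in *Cse*-/- livers. Stellate cell markers, all 6 detected, summed to 204 to 240.1 against 241 to 284 CPM, with *Lrat* and *Colec11* lower. Among sinusoidal endothelial markers *Lyve1* rose by 1.15 (edgeR adjusted p = 0.00022) and *Fcgr2b* fell by 0.40 (edgeR adjusted p = 0.00686), with sums of 171 to 187 against 183 to 225 CPM. The leukocyte marker *Ptprc* fell by 0.50 (edgeR adjusted p = 0.0442), and Kupffer cell markers overlapped, at 192 to 254 against 230 to 301 CPM. Of all genes tested 11.6% rose and 12.2% fell in this comparison. Of the tested markers 2 of 5 cholangiocyte, 2 of 6 stellate and 1 of 4 leukocyte genes fell. Among 6 endothelial genes 1 rose and 1 fell, and 0 of 6 Kupffer cell genes were called. The part of these marker shifts in the transporter results was not tested.

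The no-Trp diet served as a control for the loss of another amino acid that mice cannot make. Between the genotypes on that diet edgeR called 0 of 9 transporters (2.64% of all genes), with 2 at an unadjusted p under 0.05 (18.4% of all genes), and DESeq2 called 1. The 2 were *Abcc4*, with a log2 fold change of 1.01 (SE 0.305, edgeR adjusted p = 0.0788; DESeq2 1.03, adjusted p = 0.0226), and *Abcc3*, with 0.37 (SE 0.151, edgeR adjusted p = 0.186). Group ranges did not overlap for these and for *Slco1a4*, all higher in *Cse*-/- livers, where 10.1% of all genes were. *Slco1a1* gave −0.45 (95% interval −1.16 to 0.25). Without mouse av15, which held kidney transcripts, *Abcc4* gave 0.92 and *Abcc3* 0.25, and again no member was called.

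A test of the interaction asked whether the genotype difference on the no-Cys diet exceeded that on the no-Trp diet. It did for *Abcc3*, by 1.03 on the log2 scale (SE 0.200, edgeR adjusted p = 0.00618), and for *Abcc4*, by 1.74 (SE 0.410, edgeR adjusted p = 0.0205), 2 of 9 members against 4.36% of all genes. Without mouse av14 or av20 the *Abcc4* difference was 1.59 and 1.46 and missed the threshold (edgeR adjusted p = 0.0503 and 0.0605). *Slco1a1* gave −1.26 (SE 0.446, edgeR adjusted p = 0.114) and was called only without mouse av01 among the libraries left out (−1.47, edgeR adjusted p = 0.0469), and also when low counts were not filtered (edgeR adjusted p = 0.0192). The 4 uptake genes had negative values, of which none was called in the fit used throughout, with a median of −0.50 against −0.02 over all genes. Markers of liver cells moved in the same test, with the hepatocyte genes *Alb* at −0.997 (edgeR adjusted p = 0.0345) and *Ttr* at −0.81 (edgeR adjusted p = 0.0492) and the sinusoidal gene *Lyve1* at 1.30 (edgeR adjusted p = 0.011). Their part in the result was not tested.

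BSO tested whether the loss of GSH synthesis, added to the loss of tryptophan, moves the same transporters. In *Cse*-/- livers on the no-Trp diet, *Abcc3* was the 1 member called, in a comparison that called 0.793% of all genes (0.488% higher). It rose 1.58-fold with BSO (log2 fold change 0.66, SE 0.143, edgeR adjusted p = 0.0318), and its ranges did not overlap (6.47% of all genes were higher in that way). The call was kept without mouse av10 (0.76, edgeR adjusted p = 0.00596) or av15 (0.77, edgeR adjusted p = 0.0366) and lost without any of the other 5 livers. Without mouse av09 the log2 fold change was 0.56 (edgeR adjusted p = 0.136), without av11 0.63 (0.101), without av12 0.66 (0.0637), without av14 0.60 (0.108) and without av16 0.60 (0.0926). In a model of these groups alone it was 0.66 (edgeR adjusted p = 0.0845). *Abcc4* gave 0.93 (SE 0.268, edgeR adjusted p = 0.109) and *Abcc2* 0.45 (SE 0.125, edgeR adjusted p = 0.0925). Mouse av10 had the lowest level of all 3 genes in the BSO group, and without it *Abcc4* (1.11, edgeR adjusted p = 0.0243) and *Abcc2* (0.55, edgeR adjusted p = 0.0160) passed the test as well. *Slco1a1* had a log2 fold change of −0.58 (95% interval −1.23 to 0.07) and *Slco1a4* of −0.53 (−1.19 to 0.13). The median was 0.45 over efflux and −0.41 over uptake genes, against −0.0048 over all genes.

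The next comparisons share these *Cse*-/- groups and are therefore not independent of those above. On the no-Cys against the no-Trp diet, *Cse*-/- livers had higher *Abcc4* (log2 fold change 1.85, SE 0.272, edgeR adjusted p = 0.000416), *Abcc3* (0.78, SE 0.143, edgeR adjusted p = 0.00233) and *Abcc2* (0.45, SE 0.125, edgeR adjusted p = 0.0276). They had lower *Slco1a1* (−1.07, SE 0.313, edgeR adjusted p = 0.0348), so that 4 of 9 members were called where 10.4% of all genes were. The calls of *Abcc4* and *Abcc3* held without each library in turn. That of *Abcc2* was lost without mouse av06 (0.46, edgeR adjusted p = 0.0525), av14 (0.40, 0.118) or av15 (0.44, 0.0551). That of *Slco1a1* was lost without mouse av05 (−1.16, edgeR adjusted p = 0.0544), av07 (−1.15, 0.0525), av14 (−0.88, 0.159) or av16 (−0.99, 0.0967). Both were also lost in a model of these groups alone (edgeR adjusted p = 0.0639 and 0.118). In this comparison 3 of 6 hepatocyte markers, *Ttr* and *Apoa1* among them, were lower on the no-Cys diet, as were *Spp1* of the cholangiocyte and *Colec11* of the stellate cell markers. Their part in the result was not tested.

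Between *Cse*-/- livers without dietary cysteine and those on the no-Trp diet with BSO, *Abcc4* was the 1 member called, where 2.75% of all genes were. It was 1.89-fold higher on the no-Cys diet (log2 fold change 0.92, SE 0.234, edgeR adjusted p = 0.0391). The call was kept without mouse av08 (edgeR adjusted p = 0.0236). Leaving out mouse av05, av06, av07, av09, av10, av11 or av12 moved it past the threshold, with log2 fold changes of 0.74 to 1.00 and edgeR adjusted p values of 0.0655 to 0.127. *Abcc3* differed by 0.12 (95% interval −0.15 to 0.39), *Abcc2* by −0.01 (−0.24 to 0.23) and *Slco1a1* by −0.49 (−1.10 to 0.12). Here 3 of 6 hepatocyte markers and the cholangiocyte markers *Spp1* and *Krt7* were lower on the no-Cys diet, and their part in the result was not tested. Over all genes, 406 were called in this comparison, 52 without mouse av06 (0.352%) and 1027 without mouse av08 (6.97%).

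**Figure D3:**
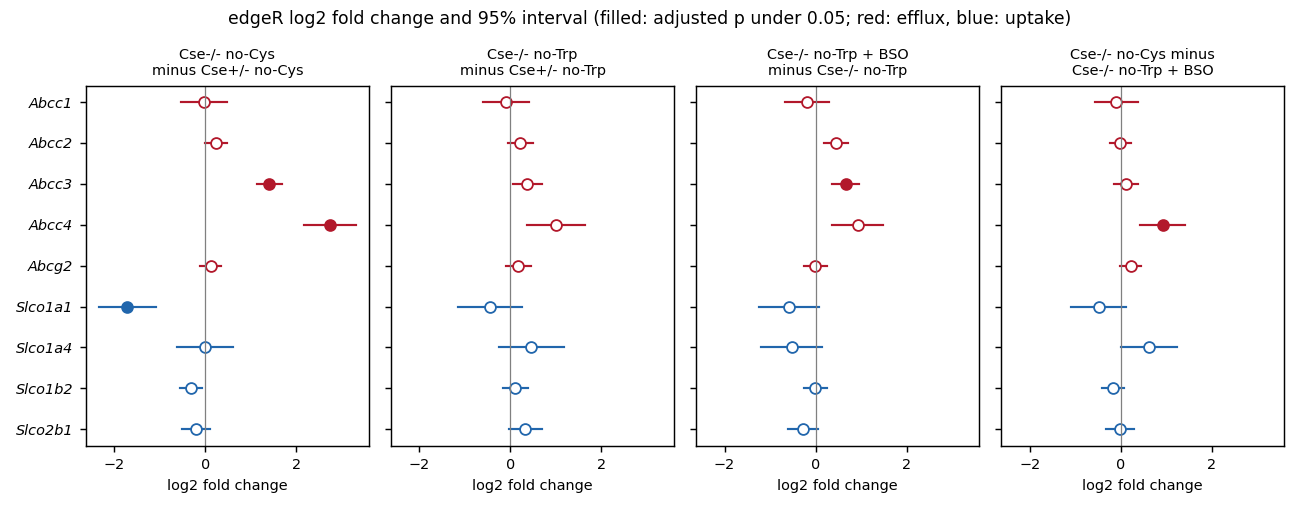
Log2 fold change of each transporter (points, red for efflux and blue for uptake) with its 95% interval in each comparison, filled where the edgeR adjusted p was under 0.05. In *Cse*-/- against *Cse*+/- livers on the no-Cys diet, *Abcc4* lies at 2.75, *Abcc3* at 1.41 and *Slco1a1* at −1.72, and the other 6 lie between −0.31 and 0.24.

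In *Cse*+/- livers, which can make cysteine, the diets alone were compared with the control diet. EdgeR called 0 of 9 transporters on the no-Cys diet (2.18% of all genes), with 2 at an unadjusted p under 0.05 (16.6% of all genes). These were *Slco1b2* (log2 fold change 0.40, 95% interval 0.11 to 0.69) and *Abcc2* (0.34, 0.05 to 0.64), and *Abcc3* was at −0.27 (−0.61 to 0.06). On the no-Trp diet edgeR called 0 of 9 (0.0474% of all genes), with 0 at an unadjusted p under 0.05 (9.29% of all genes) and values from −0.61 (*Slco1a4*) to 0.14 (*Slco1b2*). DESeq2 called 0 in both. The control group has 2 livers, of which av22 held kidney transcripts. Without av22 a single control liver is left, whose spread is assumed to be that of the other groups, and edgeR then called 10 of 15272 genes on the no-Cys diet and 2 on the no-Trp diet, so that the members could not be judged.

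To set efflux against uptake in each liver, the mean log2 CPM of the 5 efflux genes and that of the 4 uptake genes were taken relative to the control livers and subtracted. The difference was 1.34 ± 0.161 (SD, n = 4, range 1.10 to 1.44) in *Cse*-/- livers on the no-Cys diet and 1.03 ± 0.373 (n = 4, range 0.57 to 1.48) in those on the no-Trp diet with BSO. It was 0.35 ± 0.208 (n = 3) in *Cse*-/- livers on the no-Trp diet alone, 0.08 ± 0.265 (n = 3) in *Cse*+/- livers on that diet and −0.12 ± 0.148 (n = 4) in *Cse*+/- livers on the no-Cys diet. All 8 livers of the first 2 groups were above the highest of the other 12, which was at 0.55. Gene by gene, *Cse*-/- no-Cys livers differed most in relative terms from control in *Abcc4* (16.0 against 2.87 CPM), *Slco1a1* (127 against 404 CPM) and *Abcc3* (601 against 274 CPM). *Abcc1* was lower there (1.58 against 1.92 CPM) and *Slco1b2* higher (1074 against 1011 CPM), opposite to their class means. In the *Cse*-/- no-Cys group the efflux mean was 0.79 above and the uptake mean 0.55 below control, and in the BSO group 0.54 above and 0.49 below. Hepatocyte markers summed to 40150 to 66793 CPM and 59181 to 75044 CPM in these groups, against 109339 to 110909 CPM in control livers, and cholangiocyte markers to 16.4 to 28.8 and 36.4 to 48.9 CPM, against 57.4 to 83.0 CPM. Their part in the difference was not tested. The classes were chosen with results of these livers known, and no test was made of the difference.

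**Figure D4:**
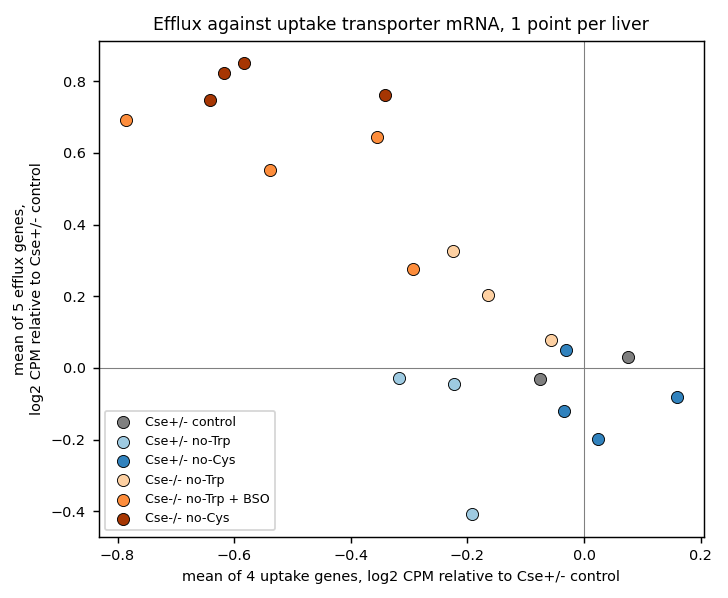
Mean log2 CPM of the 5 efflux genes against that of the 4 uptake genes, both relative to the control livers, with 1 point per liver coloured by group. The *Cse*-/- no-Cys livers (efflux mean 0.79, uptake mean −0.55) and those with BSO (0.54 and −0.49) have on average higher efflux and lower uptake than each *Cse*+/- group, although 1 BSO liver (av10, uptake −0.29) lies above 1 *Cse*+/- no-Trp liver (av20, −0.32).

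Summed on the per-kilobase scale, which weights abundant genes, efflux transcripts were at 137 ± 3.06 CPM per kb in *Cse*+/- and 222 ± 5.71 CPM per kb in *Cse*-/- livers on the no-Cys diet. Uptake transcripts were at 385 ± 58.7 and 275 ± 10.1 CPM per kb, and neither pair of ranges overlapped. On this scale the control livers had 127 ± 1.73 CPM per kb of efflux and 320 ± 42.4 CPM per kb of uptake transcripts, so that the *Cse*+/- no-Cys group had the highest uptake sum of the 6 groups. The BSO group had 211 ± 33.0 CPM per kb of efflux and 306 ± 35.1 CPM per kb of uptake transcripts, with an uptake range of 255 to 336 that overlapped with that of the control livers (290 to 349.8). The make-up of each class differed too. *Abcc3* went from 29.0% to 47.6% of efflux transcripts and *Abcc2* from 63.5% to 46.4%. *Slco1a1* went from 20.2% to 8.77% of uptake transcripts and *Slco1b2* from 70.2% to 79.3%. The scarce *Abcc4* made up 1.13% of efflux transcripts in *Cse*-/- livers on the no-Cys diet in spite of the largest fold change of the 9 genes there.

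Over the 20 livers, *Abcc3* and *Abcc4* varied together (Pearson r 0.918 of log2 CPM, and 0.520 after subtracting group means), as did *Abcc2* and *Abcc4* (0.762 and 0.607). *Slco1a1* ran opposite to *Abcc4* (−0.804), *Abcc3* (−0.779) and *Abcc2* (−0.692) over all livers. Within groups the pairs with *Abcc4* and *Abcc3* gave −0.07 and 0.07, while that with *Abcc2* gave −0.49. Among 9431 other genes, those most like *Abcc3* over the livers were *Hexa* (r 0.955) and *Cyp2a5* (0.938), and those most like *Abcc4* were *Htatip2* (0.925) and *Aldoa* (0.922). *Abcc2* was most like *Zbtb7b* (0.907) and *Ubap2l* (0.904). *Slco1a1* was most like the pseudogene *Scp2-ps2* (0.900) and *Fabp1* (0.896), the fatty acid binding protein of liver. For the other members the highest r was between 0.726 (*Slco1a4* with *Ttpa*, the vitamin E transfer protein) and 0.879 (*Slco2b1* with *Sema4g*). These are descriptions over livers that share groups and libraries.

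Related lists put the members beside their pathway. Of 15 other ABC transporters of the hepatocyte, 5 rose and 1 fell in *Cse*-/- against *Cse*+/- livers on the no-Cys diet (median log2 fold change 0.17). Over all genes tested 11.6% rose and 12.2% fell there. *Abcc12*, a scarce relative of the MRP pumps, rose by 2.21 (SE 0.519, edgeR adjusted p = 0.00429), from a mean of 0.319 to 1.51 CPM. *Abcb1a*, which encodes the drug pump P-glycoprotein, rose by 1.30 (SE 0.295, edgeR adjusted p = 0.00339), and *Abca8a* fell by 0.52 (SE 0.136, edgeR adjusted p = 0.00865). Of 24 other carriers of organic ions and bile salts, 17 had enough counts, of which 1 rose and 7 fell (median −0.41). *Slc22a7*, the organic anion carrier OAT2, had the lowest value at −2.51 (SE 0.485, edgeR adjusted p = 0.000992), from 45.2 ± 19.4 to 7.98 ± 4.85 CPM. *Slc22a28* was at −1.94 (SE 0.443, edgeR adjusted p = 0.0035), and *Slc22a3*, an organic cation carrier, was the one that rose, by 0.83 (SE 0.293, edgeR adjusted p = 0.0456). With BSO on the no-Trp diet, edgeR called 0 of the 15 and 0 of the 17, where it called 0.793% of all genes.

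**Figure D5:**
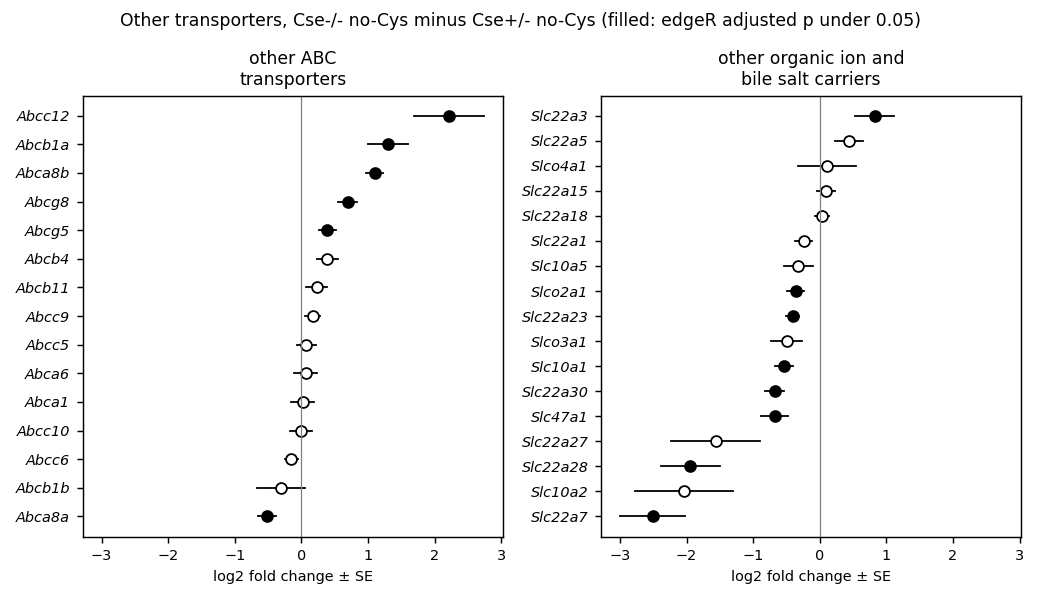
Log2 fold change with its SE of the other ABC transporters and the other organic ion and bile salt carriers in *Cse*-/- against *Cse*+/- livers on the no-Cys diet, filled where the edgeR adjusted p was under 0.05. Of the ABC genes 5 rose and 1 fell, and of the carriers 1 rose and 7 fell, from *Abcc12* at 2.21 to *Slc22a7* at −2.51.

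The enzymes that make glucuronides, which MRP2 and MRP3 carry, moved in both directions. Of 19 tested, 5 rose and 5 fell in *Cse*-/- livers on the no-Cys diet (median −0.09), beside the 11.6% and 12.2% of all genes. *Ugdh*, the enzyme that makes UDP-glucuronate, rose by 1.65 (SE 0.228, edgeR adjusted p = 5.46e-05) and *Ugt2b35* by 1.25 (SE 0.147, edgeR adjusted p = 9.90e-06). *Ugt2b38* and *Ugt1a5*, both below 10 CPM on average, were at −2.82 and −2.06. The *Ugt1a* genes share their last exons, so that their counts are uncertain. With BSO 4 of the 19 rose and none fell (0.488% of all genes rose), led by *Ugdh* (1.52, edgeR adjusted p = 0.00436) and *Ugt2b35* (1.18, SE 0.161, edgeR adjusted p = 0.00126). In the interaction of genotype and diet 0 of the 19 were higher and 2 were lower (4.36% of all genes were called), *Ugt1a5* at −3.24 (SE 0.482, edgeR adjusted p = 0.00125) and *Ugt1a6a* at −1.04 (SE 0.279, edgeR adjusted p = 0.039). *Ugdh* and *Ugt2b35* were not called there (1.13 and 0.70, edgeR adjusted p = 0.0636 and 0.0783).

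Of 14 NRF2 target genes tested, 8 rose and 1 fell in *Cse*-/- livers on the no-Cys diet, and 6 rose with BSO, while edgeR called 0 between the genotypes on the no-Trp diet. Of all genes 11.6% rose and 12.2% fell in the first comparison, 0.488% rose in the second and 2.64% were called in the third. *Nqo1*, a quinone reductase, rose by 2.29 (edgeR adjusted p = 4.49e-06) on the no-Cys diet and by 1.87 (SE 0.261, edgeR adjusted p = 0.00154) with BSO. *Srxn1*, which repairs oxidized peroxiredoxins, rose by 1.77 (SE 0.135, edgeR adjusted p = 7.43e-08) and 1.64 (SE 0.147, edgeR adjusted p = 9.59e-06). Of 16 receptors and factors known to act on transporter genes, 2 were called on the no-Cys diet, where 23.8% of all genes were. *Keap1*, the inhibitor of NRF2, rose by 0.22 (SE 0.0725, edgeR adjusted p = 0.035) and *Nfe2l2*, which encodes NRF2, fell by 0.41 (SE 0.118, edgeR adjusted p = 0.0157), from 76.6 to 57.6 CPM. *Nfe2l2* was at 48.2 CPM in the control livers, and on the no-Cys diet it rose in *Cse*+/- livers by 0.67 (SE 0.148, edgeR adjusted p = 0.0201). That comparison called 2.18% of all genes and rests on 2 control livers, of which av22 held kidney transcripts. Of 18 genes more abundant in male than in female liver, as *Slco1a1* is, 13 fell in *Cse*-/- livers on the no-Cys diet (median −1.34, beside 12.2% of all genes) and none rose. *Serpina4-ps1* was at −6.27 (SE 0.868, edgeR adjusted p = 5.32e-05) and *Selenbp2* at −5.53 (SE 0.896, edgeR adjusted p = 0.000233). With BSO 1 of the 18, *Gstp1*, rose by 1.67 (SE 0.284, edgeR adjusted p = 0.0057) and none fell. Between the genotypes on the no-Trp diet 1 of the 18, *Serpina4-ps1*, fell (median −0.59). Of 19 genes more abundant in female liver 10 were tested, of which *Cyp2a4* rose (2.41, SE 0.539, edgeR adjusted p = 0.00313) and *Abcd2* fell (−2.38, SE 0.390, edgeR adjusted p = 0.000252) in *Cse*-/- livers on the no-Cys diet. The mRNA of a transporter was measured here and neither its protein nor transport was.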

How the data were processed

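Livers of 20 mice were analysed. Groups follow the labels and the study's list of mice, and of 21 columns the table holds, 1 was not used, since its group is not given there. The values are raw counts that the authors deposited, without normalization, of paired-end reads from poly(A) RNA aligned to GRCm38 with HISAT2 2.1.0 and counted on genes with HTSeq 0.11.0. No source used here gives the annotation release. Symbols, coordinates and exon lengths come from GENCODE M21, which named 45143 of 46078 genes and left 935 unnamed. Pairs of livers of a group differed by more than counting noise (chi-square per gene 9.60 to 64.2 over 25 pairs). The p-values rest on this spread between libraries, 1 per mouse, in which mice and the handling of tissue and RNA cannot be told apart.

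Low genes were removed with filterByExpr at a minimum count of 10 and a minimum total of 15. The quasi-likelihood test of edgeR 4.0.16 (R 4.3.3, TMM factors) used 1 fit of all 20 libraries with 6 group means. Two-sided p-values were Benjamini-Hochberg adjusted over the 14759 genes, and called, rose and fell mean an adjusted p under 0.05. CPM are counts scaled to the TMM-adjusted library size by edgeR. The script was tested on simulated data. As alternatives, DESeq2 1.42.0 replaced edgeR, upper-quartile or RLE factors replaced TMM, the filter was dropped or set to a mean CPM of 1, libraries of other groups were left out, and each library was left out in turn. All 9 members are named, with the 2 called genes of largest log2 fold change in each direction per related list, and the 2 genes of highest Pearson r per member, among tested genes with a mean CPM of at least 5. The members and lists were chosen with earlier results of these data known. Figures used Python 3.11.15 and matplotlib 3.10.9.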

Additional observations from a re-analysis of the deposited data

Results flagged for a closer look

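Among the groups of 4 livers, 30 sets of values, those of the 9 members and of the efflux minus uptake difference in each of 3 groups, were examined for a liver far from the others, and 7 held one. For independent, normally distributed values chance gives about 1 in 20. These sets share livers and the difference is built from the members, so the 7 cannot be set against that rate. In *Cse*-/- livers on the no-Cys diet, mouse av08 had 971 CPM of *Abcc2*, against 836 to 850 CPM in the other 3, and 50.3 CPM of *Slco1a1*, against 150 to 158 CPM. Mouse av07 had 21.5 CPM of *Abcc4*, against 13.9 to 14.4 CPM, and an efflux minus uptake difference of 1.10, against 1.39 to 1.44. Mouse av05 had 1012 CPM of *Slco1b2*, against 1090 to 1101 CPM. In the BSO group, mouse av10 had 4.56 CPM of *Abcc4*, against 9.51 to 9.83 CPM. In *Cse*+/- livers on the no-Cys diet, mouse av01 had 156 CPM of *Slco1a4*, against 64.8 to 70.3 CPM.

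The genotype difference on the no-Cys diet exceeded that on the no-Trp diet for *Abcc3*, by 1.03 on the log2 scale (edgeR adjusted p = 0.00618), and for *Abcc4*, by 1.74 (edgeR adjusted p = 0.0205).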

How the results depend on the processing

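No paired analysis was possible because the columns of the count table carry mouse numbers and not the replicate numbers of the labels. The number of members called between the genotypes on the no-Trp diet went from 0 to 1 with DESeq2 and with no filter on low counts. With BSO it went from 1 to 3 with DESeq2, 2 with no filter and 0 when the other groups were left out of the model. It went from 4 to 2 in such a model for *Cse*-/- livers on the no-Cys against the no-Trp diet. Over the libraries left out in turn, this count ran from 0 to 3 with BSO, from 2 to 4 for the no-Cys against the no-Trp diet, from 0 to 1 for the no-Cys diet against BSO, and from 1 to 3 for the interaction. Between the genotypes on the no-Cys diet it stayed at 3 or 4. The number of all genes called also moved with single libraries. With BSO it went from 117 to 36 without mouse av09 and 172 without av10, between the genotypes on the no-Trp diet from 389 to 109 without av15, for the no-Cys against the no-Trp diet from 1535 to 683 without av14, and for the interaction from 643 to 350 without av07 and 1150 without av08. In *Cse*-/- against *Cse*+/- livers on the no-Cys diet, the values of 2 genes near 0 changed sign. *Slco1a4* gave 0.000493 with no filter and −0.23 to 0.40 over the libraries left out, and *Abcc1* −0.13 to 0.17. The efflux minus uptake difference of *Cse*+/- livers on the no-Trp diet ran from −0.018 to 0.23. For single genes, calls and directions were kept in 191 of the other settings and changed in 13, and were kept in 247 of the fits without 1 library and changed in 30. The cause of these changes was not tested. Counts of 14 to 100 per library limit what can be seen of *Abcc1*, and 2 control livers limit comparisons with the control diet.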
